A study of Mus musculus with 14 samples.

Results

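The first week of SOX9 induction was examined in sorted epidermal stem cells (EpdSCs) of mouse back skin, by comparing 2 RNA-seq libraries taken at W1 with 2 taken at D0. These are 4 of the 14 libraries in the series, and they belong to a time course of 10 that runs on to W2, W6 and W12. All 4 came from CD1 mice that carried *K14rtTA* and *TRE-myc-Sox9*, in which the *Krt14* promoter drives the tetracycline-dependent activator in basal keratinocytes and the activator needs doxycycline (DOX) to turn on a MYC-tagged *Sox9* (MYC-SOX9). The D0 mice were at postnatal day 21 and had no DOX, and the W1 mice were at postnatal day 28 after 1 week of DOX, given by injection and then in the chow. The W2 and W6 mice were older, and the W12 cells came from skin grafted onto immunocompromised mice. Cells were sorted as CD49f-high, Ly6A-high and CD34-negative after removal of CD31, CD45, CD117 and CD140a-positive cells. Of 54332 genes in the authors' table, the 13110 with a mean of at least 1 TPM (a transcript's share of the library, scaled to the same total in each) over the 10 time-course libraries were compared.

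EpdSCs sit in the basal layer of the epidermis, where they divide and send daughters upward that stop dividing, make *Krt1* and *Krt10*, and cornify. SOX9 is a transcription factor of hair follicle stem cells and of the outer root sheath, the outermost epithelial layer of the follicle, and it is scarce in the epidermis between follicles. It binds DNA through an HMG box and is known as a pioneer factor, one that can reach sites in closed chromatin. The question behind the comparison is which genes of the epidermal stem cell had changed by the first timepoint after SOX9 was switched on.

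The transgene had 89.6 and 45.6 TPM in the 2 D0 libraries and 3387 and 3414 TPM in the 2 W1 libraries (log2 change 5.71, standard error 0.32, adjusted *P* = 8.07e-05). Changes are differences of mean log2(TPM + 1), W1 minus D0, given with ± their standard error. The adjusted *P* is from limma, a linear model fitted to all 10 time-course libraries so that they share 1 estimate of the spread, with Benjamini-Hochberg adjustment over the 13110 genes. Both W1 libraries stood far above both D0 libraries, and the transgene was not at 0 without DOX. The log2 change was 5.23 without D0 replicate 2. The endogenous *Sox9* entry had 11.5 and 9.47 TPM at D0 and 4.02 and 2.71 TPM at W1 and was called lower (−1.41 ± 0.26, adjusted *P* = 0.011), but its coding sequence is also in the transgene, so the split of reads between these entries is uncertain. D0 replicate 2 went against the label of male mice. *Xist* had 4.61 TPM there and 0.00103 TPM in D0 replicate 1, and *Ddx3y*, on the Y chromosome, had 0.0279 and 32.1 TPM in these libraries. Both W1 libraries had *Xist* at 0. Results are therefore also given without D0 replicate 2, in which case the single D0 library is assumed to vary like the other groups. Age rises together with time on DOX, and no RNA of untreated mice at postnatal day 28 was analysed here. Nor was RNA of DOX-treated mice that lacked the transgene. A change from age, or from the DOX, its injection or the chow, therefore cannot be told apart from one from SOX9.

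All 4 libraries carried the markers of basal keratinocytes. *Krt14* had 29902 and 31096 TPM at D0 and 20730.5 and 21849 TPM at W1. *Krt5* had 14774 and 14609 TPM at D0 and 12307 and 12354 TPM at W1, while the summed TPM of the 7 basal marker genes was 57230 and 59892 at D0 and 44369.6 and 44491 at W1. None of the 7 was called, and 2 were lower without D0 replicate 1. Markers of most other cells were near 0. Over the 4 libraries, summed TPM ran from 2.52 to 3.32 for 8 T cell genes, 2.03 to 6.26 for 7 melanocyte genes, 0.544 to 4.23 for 7 fibroblast genes, 0.0598 to 0.479 for 6 endothelial genes, 0.106 to 0.626 for 6 Merkel cell genes and 1.78 to 4.54 for 7 sebocyte genes. Other lists were not near 0. The 5 erythrocyte genes summed to 28.4 and 30.6 TPM at D0 and 12.6 and 27.8 TPM at W1. The 10 hair shaft and matrix genes found in the table summed to 46.8 and 31.9 TPM at D0 and 60.7 and 62.6 TPM at W1, mostly through *Krt32*, and 0 of the 4 tested in either list were called, beside 0 and 2 at an unadjusted *P* under 0.05. The 7 Langerhans cell genes summed to 50.9 and 32.9 TPM at D0 and 87.3 and 77.8 TPM at W1. Most of that rise came from *Mfge8*, at 1.16 and 1.63 TPM at D0 and 36.3 and 39.9 TPM at W1. *Mfge8* and *H2-Aa* (from 5.44 and 4.61 TPM to 12.4 and 8.89 TPM) were called higher, while *Cd207*, which defines these cells, stayed under 1 TPM in all 4. Outside the T cell list, and chosen after its values were seen, *Trbc2* went from 111 and 60.1 TPM to 26.5 and 38.1 TPM and was called lower (−1.34 ± 0.35, adjusted *P* = 0.0464), while *Cd3d*, *Cd3e* and *Cd3g* were under 1 TPM in all 4 libraries. Their part in other results was not tested. In bulk RNA of sorted cells, fewer cells of a type and less RNA per cell cannot be told apart.

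By W1, 1296 of the 13110 genes (9.89%) passed the threshold of an adjusted *P* below 0.05, 759 of them higher (5.79% of all genes tested) and 537 lower (4.10%). These genes are called higher or lower from here on, and the shares over all genes tested are the background for each count per list. An unadjusted *P* under 0.05 in the same limma fit was reached by 3361 of the 13110 genes. For genes at low TPM, the pseudocount of 1 makes the log2 change smaller than the change in level. Among the higher genes, 500 rose by at least 1 on the log2 scale and 122 by at least 2, and among the lower genes 394 fell by at least 1 and 145 by at least 2, so that losses outnumbered gains only at the larger size. In every called gene, both W1 libraries lay on the same side of both D0 libraries, which was also true of 55.2% of all genes tested. The split depended on scaling, since median-ratio scaling gave 603 higher and 669 lower genes and quantile normalization 619 and 609. The median of all genes lay at 0.09 in TPM and at 0.00 after median-ratio scaling. Without D0 replicate 2, 1031 genes were called, and all 1296 kept their sign, with 780 of them still past the threshold. With the 4 libraries of D0 and W1 alone in the fit, 386 of the 1296 stayed past it. Without W1 replicate 1 there were 609 calls and without W1 replicate 2 there were 377. Pseudogenes and unnamed genes made up 69 of the higher and 44 of the lower genes, and 1644 of the 13110 genes tested, and are not described singly.

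Of the 15 largest rises other than the transgene, 6 are described first for their secreted or matrix products. *Gphb5* (chromosome 12, 75411722 to 75416781, GRCm38), which encodes the beta subunit of the glycoprotein hormone thyrostimulin, was listed at 0 in both D0 libraries and at 71.2 and 93.6 TPM at W1 (adjusted *P* = 8.07e-05, or 0.00126 without D0 replicate 2). No fold is given against 0. *Ccn2* (chromosome 10, 24595442 to 24598683), a secreted matricellular protein also known as CTGF, rose from 7.27 and 15.3 TPM to 248 and 307 TPM (log2 change 4.58, standard error 0.33, adjusted *P* = 0.000195). *Sbspon*, a somatomedin B and thrombospondin domain protein, rose from 0.171 and 0.0615 TPM to 25.9 and 33.4 TPM (4.77 ± 0.49, adjusted *P* = 0.000887). Each of these had W1 libraries well clear of the D0 libraries, and the ranking took only genes without overlap. *Spon2*, a secreted protein of the spondin family, rose from 9.09 and 9.0 TPM to 124 and 146 TPM (3.75 ± 0.16, adjusted *P* = 3.14e-05), with little spread within either pair of libraries. *Mfge8*, a secreted protein that links dying cells to phagocytes, rose from 1.16 and 1.63 TPM to 36.3 and 39.9 TPM (4.03 ± 0.23, adjusted *P* = 9.01e-05). *Col9a3*, a chain of the cartilage collagen IX, rose from 0.218 and 0.0760 TPM to 14.8 and 16.9 TPM (3.88 ± 0.46, adjusted *P* = 0.00163). All 3 were low in both D0 libraries.

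The other 9 rises included genes of enzymes, a transporter and cytoskeletal proteins. *Gpx2*, a glutathione peroxidase of epithelia, rose from 0.680 and 0.607 TPM to 38.2 and 39.2 TPM (4.59 ± 0.63, adjusted *P* = 0.00281). *Agr3*, a protein disulfide isomerase of the secretory pathway, rose from 0.869 and 0.441 TPM to 28.8 and 37.6 TPM (4.37 ± 0.29, adjusted *P* = 0.000134). *Slc43a2*, a transporter of large neutral amino acids, rose from 1.88 and 3.91 TPM to 54.6 and 56.3 TPM (3.91 ± 0.35, adjusted *P* = 0.000431). These 3 genes had replicate values that lay close together at W1. *Krt6a*, a keratin of the follicle's companion layer and of wounded epidermis, rose from 22.1 and 13.2 TPM to 153 and 429 TPM (3.83 ± 0.47, adjusted *P* = 0.00192), and its W1 libraries differed from each other by more than 2 times. *Krt6a* shares reads with *Krt6b*, so its level is uncertain. *Kif26b*, an unconventional kinesin, rose from 0.581 and 1.09 TPM to 26.0 and 18.4 TPM. *Cnn3*, an actin-binding calponin, rose from 2.72 and 3.94 TPM to 41.0 and 64.5 TPM. *Lurap1l*, *Sh3tc2* and *Fam180a* complete the 15 largest rises, a ranking that leaves out the transgene. All 15 kept an adjusted *P* under 0.05 without D0 replicate 2, the largest of which was 0.0259.

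**Figure D1:**
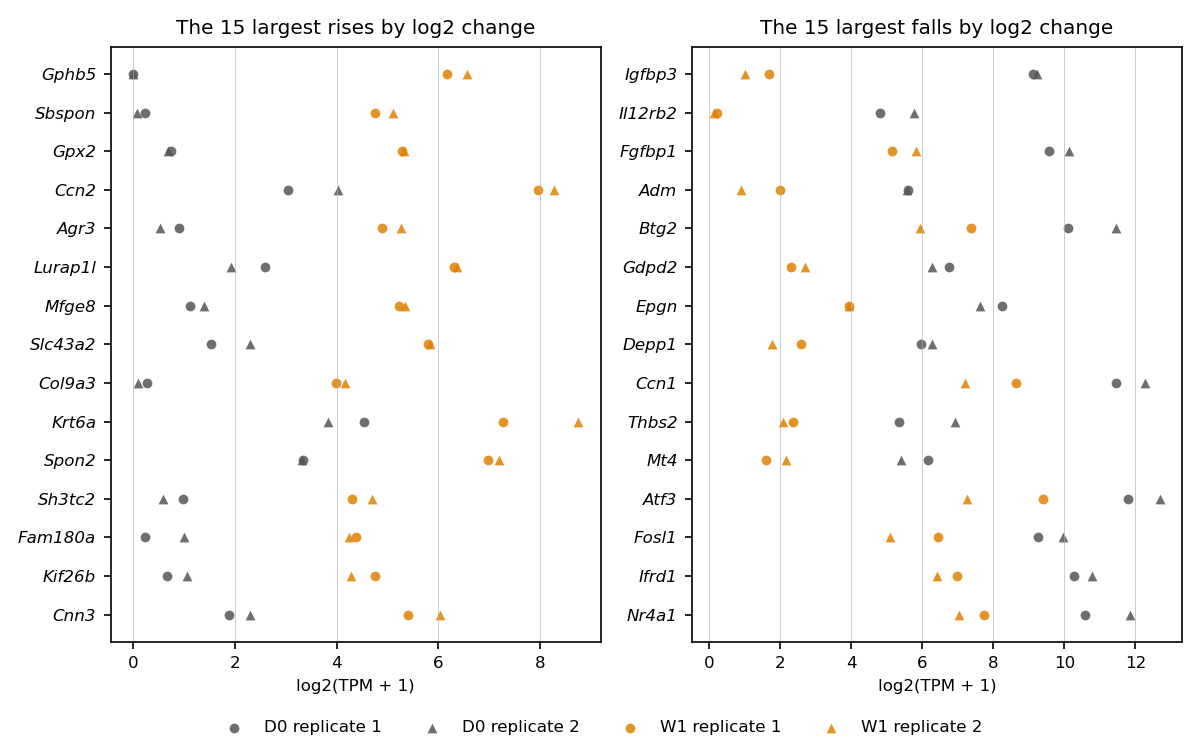
Level of the 15 largest rises and the 15 largest falls in each library, with log2(TPM + 1) on the x axis and 1 gene per row. Grey symbols are D0 and orange symbols W1, circles replicate 1 and triangles replicate 2. By the rule that picked these genes, both orange symbols lie on one side of both grey ones in every row. *Gphb5* was at 0 in both D0 libraries, and *Igfbp3* went from 551 and 595 TPM at D0 to 2.22 and 1.01 TPM at W1.

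The steepest fall was that of *Igfbp3* (chromosome 11, 7206086 to 7213923), whose product binds insulin-like growth factors outside the cell. It went from 551 and 595 TPM to 2.22 and 1.01 TPM (log2 change −7.81, standard error 0.83, adjusted *P* = 0.00103, and adjusted *P* = 0.00837 without D0 replicate 2). A gene among the abundant transcripts of the D0 cells was thus close to the lower end of the measured range at W1. *Il12rb2*, a chain of the interleukin-12 receptor, fell from 27.0 and 53.1 TPM to 0.163 and 0.111 TPM (−5.10 ± 0.30, adjusted *P* = 9.57e-05). *Adm*, the vasoactive peptide adrenomedullin, fell from 47.3 and 46.3 TPM to 2.96 and 0.862 TPM (−4.14 ± 0.37, adjusted *P* = 0.000431). *Fgfbp1*, a carrier that releases FGFs from the matrix, fell from 755 and 1129 TPM to 34.4 and 55.5 TPM (−4.37 ± 0.28, adjusted *P* = 0.000108). Of these, *Fgfbp1* was the only one to keep more than 30 TPM in both W1 libraries. *Epgn*, a ligand of the EGF receptor, fell from 299.6 and 197 TPM to 14.4 and 14.2 TPM (−3.99 ± 0.24, adjusted *P* = 9.85e-05). *Thbs2*, an antiangiogenic matrix protein, fell from 39.9 and 120.2 TPM to 4.10 and 3.20 TPM (−3.93 ± 0.50, adjusted *P* = 0.00224). *Mt4*, a metallothionein of stratified epithelia, fell from 71.1 and 41.2 TPM to 2.02 and 3.49 TPM (−3.91 ± 0.75, adjusted *P* = 0.0136). The D0 replicates of *Thbs2* were far apart, while its W1 replicates were not. *Gdpd2* and *Depp1* were also lower, and the other 6 of the 15 largest falls were *Ifrd1* and the inducible genes *Btg2*, *Ccn1*, *Atf3*, *Fosl1* and *Nr4a1*, which are described with their lists. *Ifrd1*, an interferon-related regulator, fell from 1242 and 1747 TPM to 124 and 83.5 TPM (−3.84 ± 0.28, adjusted *P* = 0.000184). Without D0 replicate 2 the adjusted *P* stayed under 0.05 for these falls except that of *Depp1*, at 0.0518.

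Counted in TPM rather than as a ratio, and leaving out the transgene, the 10 largest gains were led by *Fxyd3*, *Gsn* and *Crip1*. *Fxyd3*, a regulator of the sodium pump, went from 2724 and 1556 TPM to 5918 and 4873 TPM (1.38 ± 0.27, adjusted *P* = 0.0135). *Gsn*, the actin-severing protein gelsolin, went from 688 and 1574 TPM to 3941 and 3348 TPM (1.80 ± 0.38, adjusted *P* = 0.0194), and the LIM-domain gene *Crip1* from 869.6 and 805 TPM to 2703 and 3768 TPM (1.93 ± 0.20, adjusted *P* = 0.000887). All 3 were abundant already at D0. The other 7 of the 10 largest gains were *Krt79*, *Krt17*, *Tppp3*, *Crip2*, *Sostdc1*, *mt-Atp8* and *mt-Cytb*. The metallothionein genes *Mt1* and *Mt2* were among the 10 largest losses. *Mt1*, a zinc-binding metallothionein, fell from 8734 and 11956 TPM to 2340.2 and 1219 TPM (−2.60 ± 0.29, adjusted *P* = 0.00127). *Mt2* fell from 4619 and 6358 TPM to 1087 and 704 TPM (−2.63 ± 0.25, adjusted *P* = 0.000583). *Sfn*, the epithelial 14-3-3 sigma, fell from 4741 and 6435 TPM to 2108 and 2262 TPM (−1.34 ± 0.19, adjusted *P* = 0.00302). The 10 largest losses also included *Fos*, *Junb*, *Atf3*, *Dusp1*, *Ccn1* and *Egr1*.

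Hair follicle genes rose in part. With all 10 libraries in the fit, no tested member of the first 3 lists of follicle genes was called lower. This did not hold in each of these lists once D0 replicate 1 was left out. In the hair bud and placode list, 2 of the 10 genes tested were lower. Of 12 genes of the upper follicle that were tested, 4 were called higher (background 5.79%) and 0 lower (4.10%). Their median log2 change was 1.10, against 0.09 for all genes tested. *Krt79* (chromosome 15, 101929332 to 101940324), a keratin of the infundibulum, rose from 330.4 and 147 TPM to 2045 and 2648 TPM (log2 change 3.39, standard error 0.50, adjusted *P* = 0.00442, and 0.0239 without D0 replicate 2). *Sostdc1*, a secreted BMP and WNT antagonist, rose from 316 and 154 TPM to 1409.7 and 1456 TPM (2.69 ± 0.35, adjusted *P* = 0.00238, and 0.00845 without D0 replicate 2). D0 replicate 1 had the higher D0 level of both messages, and both W1 libraries lay far above it. *Defb6*, a beta-defensin, rose from 376 and 141 TPM to 1036 and 1132 TPM (2.23 ± 0.48, adjusted *P* = 0.0224), and without D0 replicate 2 its adjusted *P* was 0.0857. *Krt17*, a keratin of the outer root sheath that shares reads with *Krt14* and *Krt16*, rose from 1147 and 1430.5 TPM to 3163 and 3458 TPM (1.37 ± 0.30, adjusted *P* = 0.0247). *Lrig1*, *Lgr6*, *Plet1* and *Gata6* did not pass the test, with *Lrig1* at 57.3 and 75.0 TPM at D0 and 129 and 112 TPM at W1 (adjusted *P* = 0.253).

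Of 16 hair follicle transcription factors tested, 4 were called higher and 0 lower, against 5.79% and 4.10% over all genes (median log2 change 0.35). *Runx1*, a factor of follicle stem cell activation, rose from 6.98 and 8.04 TPM to 32.1 and 29.0 TPM (1.89 ± 0.21, adjusted *P* = 0.00131). *Foxc1*, a factor of follicle stem cell quiescence, rose from 4.64 and 2.76 TPM to 15.1 and 16.2 TPM (1.85 ± 0.28, adjusted *P* = 0.00501). *Nfatc1*, a marker of bulge stem cells, rose from 20.7 and 28.3 TPM to 61.8 and 61.2 TPM (1.31 ± 0.24, adjusted *P* = 0.0119). *Vdr*, the vitamin D receptor needed for hair cycling, rose from 50.0 and 51.5 TPM to 149 and 124 TPM (1.40 ± 0.16, adjusted *P* = 0.00131). For each of the 4, both W1 libraries were more than 2 times as high as both D0 libraries. All 4 also passed without D0 replicate 2, and *Tcf7l2* (8.55 and 13.2 TPM at D0, 18.5 and 17.8 TPM at W1) passed only there. *Tcf7l1*, which marks the bulge and outer root sheath, had 0.392 and 2.75 TPM at D0 and 4.16 and 5.72 TPM at W1 (adjusted *P* = 0.145). *Lhx2*, which is needed for bulge identity, had 1.47 and 4.08 TPM at D0 and 0.982 and 0.904 TPM at W1 (adjusted *P* = 0.16), and *Lef1*, *Foxi3* and *Hoxc13*, of the placode or hair matrix, stayed under the 1 TPM filter.

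Of 15 genes of the outer root sheath and bulge tested, 4 were called higher and 0 lower, against 5.79% and 4.10% over all genes (median log2 change 0.33). *Fzd7*, a WNT receptor, rose from 8.10 and 6.64 TPM to 38.9 and 37.4 TPM (2.23 ± 0.21, adjusted *P* = 0.000632). *Bmp6*, a BMP ligand of bulge stem cells, rose from 0.291 and 0.127 TPM to 3.63 and 4.17 TPM (2.02 ± 0.31, adjusted *P* = 0.00501). *Lgr4*, an R-spondin receptor, rose from 12.8 and 20.6 TPM to 42.9 and 35.1 TPM (1.21 ± 0.24, adjusted *P* = 0.0162). *Fzd3* rose from 0.866 and 1.44 TPM to 3.37 and 2.95 TPM (0.96 ± 0.22, adjusted *P* = 0.0271). The defining bulge markers *Cd34* and *Lgr5* were below 1 TPM in all 4 libraries, and *Cd34* negativity was part of the sort. Of the 10 hair bud and placode genes tested, *Sostdc1* and *Ccn2* were higher and *Bmp2* and *Ccn1* lower, while *Shh* and *Dkk4* were at most 0.0341 TPM. The summed hair shaft and matrix markers were also higher in both W1 libraries, as given above, with *Krt32*, a hair keratin, at 33.7 and 18.1 TPM at D0 and 47.9 and 47.0 TPM at W1 (adjusted *P* = 0.137), and their part in these counts was not tested. The counts of higher genes in these lists stayed within 1.5 times with median-ratio and quantile scaling, and leaving out libraries moved them more. The upper follicle count was 2 without W1 replicate 1 and 2 without W1 replicate 2, that of the transcription factors 2 without W1 replicate 2, and that of the outer root sheath and bulge 2 without W1 replicate 1 and 1 without W1 replicate 2.

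Calls among epidermal genes differed by list. Of 18 basal structural genes tested, 1 was called higher and 0 lower (median log2 change −0.04), which is 5.56% higher, near the 5.79% over all genes. The gene called was *Col7a1*, the anchoring fibril collagen, which rose from 64.2 and 57.1 TPM to 144 and 153 TPM (1.28 ± 0.14, adjusted *P* = 0.00106). The hemidesmosome and basal integrin genes *Col17a1*, *Itga6*, *Itgb4* and *Itgb1* were not called. Without D0 replicate 2 the number higher was 2. Of 19 epidermal transcription factors, *Ehf* and *Grhl1* were higher and *Klf4* lower, which is 15.8% against 9.89% of all genes. At an unadjusted *P* under 0.05 there were 12 of the 19, against 3361 of the 13110 genes tested. The median log2 change was −0.28, that of *Grhl2*. Without D0 replicate 2 the median was again that of *Grhl2*, at 0.04, so its sign depended on this library. With median-ratio scaling 1 was higher and 2 lower, since *Grhl1* lost its call and *Klf5* was called. *Ehf*, an ETS factor of epithelial cells, rose from 14.9 and 19.0 TPM to 36.1 and 35.7 TPM (1.05 ± 0.17, adjusted *P* = 0.00595). *Grhl1*, a grainyhead factor of desmosomal genes, rose from 37.5 and 46.3 TPM to 67.6 and 83.2 TPM (0.83 ± 0.19, adjusted *P* = 0.0299). *Klf4*, a factor of barrier formation, fell from 317 and 486 TPM to 168 and 150 TPM (−1.30 ± 0.29, adjusted *P* = 0.0235), with an adjusted *P* of 0.102 without D0 replicate 2. *Trp63*, the master regulator of stratified epithelia, had 291 and 654 TPM at D0 and 209 and 211 TPM at W1 (−1.05 ± 0.31, adjusted *P* = 0.0721). *Gata3* had 241 and 346 TPM at D0 and 148 and 173 TPM at W1 (−0.85 ± 0.29, adjusted *P* = 0.111). Neither passed, and the D0 replicates of *Trp63* lay far apart. The counts of the epidermal factors were 1 without D0 replicate 1, 1 without W1 replicate 1 and 0 without W1 replicate 2 for higher ones and 3 without D0 replicate 1, 0 without D0 replicate 2, 0 without W1 replicate 1 and 0 without W1 replicate 2 for lower ones.

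Among 23 genes of suprabasal differentiation tested, 4 were called higher and 1 lower, or 21.7%, against 9.89% over all genes (median log2 change 1.16). Without D0 replicate 2 the median log2 change was lower, at 0.51 (*Lypd3*). *Spink5*, an inhibitor of skin kallikreins, rose from 3.02 and 4.34 TPM to 27.7 and 45.6 TPM (2.98 ± 0.34, adjusted *P* = 0.00137). *Ivl*, the cornified envelope protein involucrin, rose from 0.963 and 1.01 TPM to 5.33 and 9.32 TPM (2.02 ± 0.23, adjusted *P* = 0.0014). Both also passed without D0 replicate 2, whereas *Dsc1* (adjusted *P* = 0.14) and *Sbsn* (adjusted *P* = 0.129) did not. *Dsg1b*, a desmosomal cadherin, fell from 20.9 and 22 TPM to 8.26 and 10.1 TPM (−1.15 ± 0.19, adjusted *P* = 0.00744). The early differentiation keratins were not called, with *Krt1* at 915 and 265 TPM at D0 and 201 and 279.7 TPM at W1 and *Krt10* at 1335 and 871 TPM at D0 and 792 and 1349.5 TPM at W1. The D0 and W1 libraries overlapped for both keratins. Of 11 wound and stress keratin and cornified-envelope genes tested, *Krt6a*, *Krt17* and *Sprr1a* were higher and 0 lower, and *Krt16* had 189 and 201 TPM at D0 and 73.8 and 148 TPM at W1 (−0.89 ± 0.31, adjusted *P* = 0.107). The suprabasal count of higher genes was 8 without D0 replicate 1, 2 without D0 replicate 2, 2 without W1 replicate 1 and 2 without W1 replicate 2, and that of lower ones 2 without D0 replicate 2 and 0 without W1 replicate 1. The wound keratin count was 1 without W1 replicate 2.

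**Figure D2:**
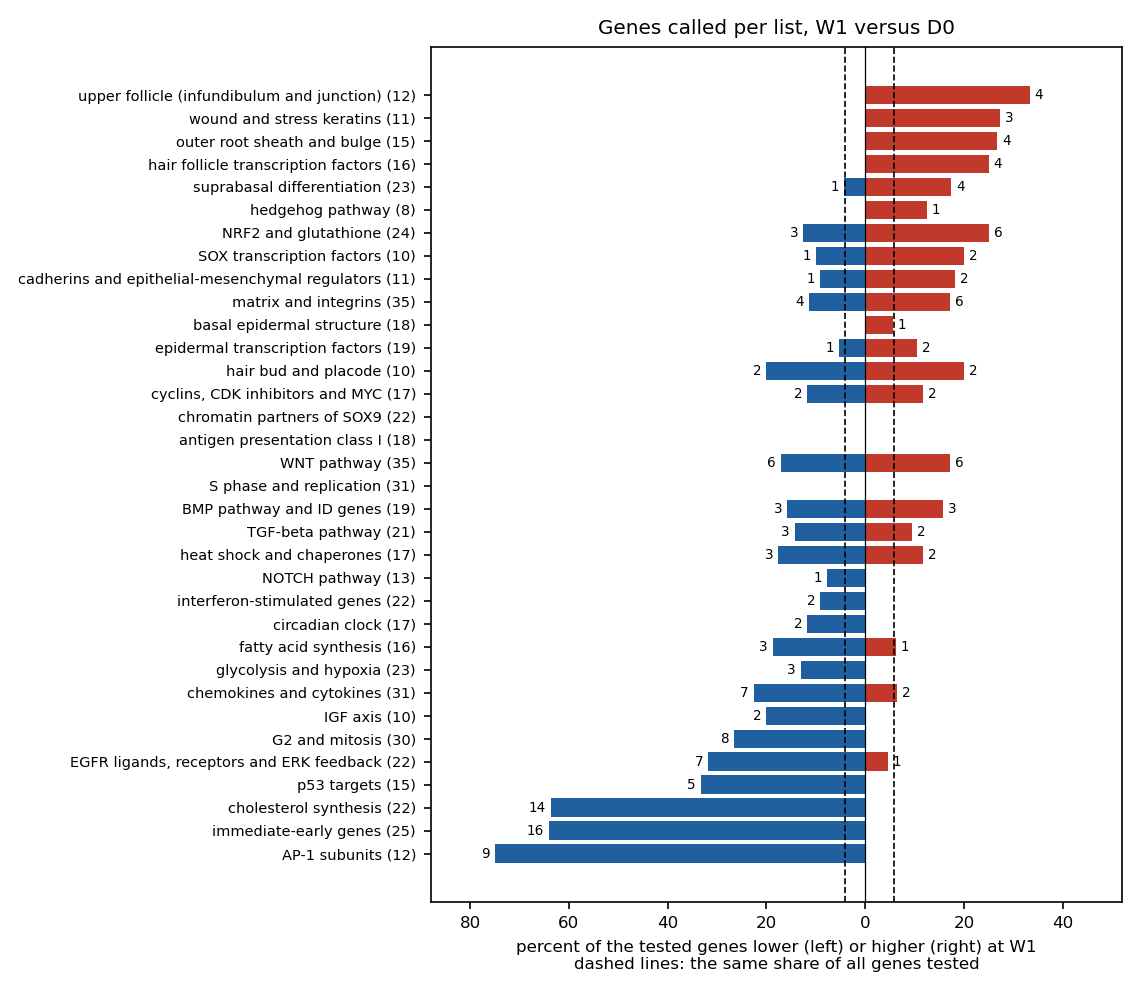
Share of the tested genes of 34 lists called lower (blue, left) or higher (red, right) at W1, in percent on the x axis, with the number tested in brackets and the number called at the bar. Dashed lines are the shares over all genes tested, 4.10% lower and 5.79% higher. Immediate-early genes (16 of 25), AP-1 subunits (9 of 12) and cholesterol synthesis (14 of 22) reach furthest to the left, and the upper follicle list (4 of 12) furthest to the right among the lists drawn, which leave out marker lists and gene families.

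Most immediate-early genes, which cells transcribe within minutes of growth factors or stress, were lower at W1. Of 25 tested, 16 were called lower and 0 higher, against 4.10% lower over all genes, with a median log2 change of −2.13. Their summed TPM was 29019 and 48049.8 at D0 and 7668 and 4550.01 at W1, without overlap of the groups. *Fos* went from 7385 and 8547 TPM to 2036 and 1054 TPM (−2.44 ± 0.37, adjusted *P* = 0.00492). *Egr1* went from 1932 and 4700.2 TPM to 609 and 382 TPM (−2.64 ± 0.47, adjusted *P* = 0.0101). *Nr4a1*, an orphan nuclear receptor, fell from 1517 and 3649.7 TPM to 212 and 130.1 TPM (−3.82 ± 0.55, adjusted *P* = 0.00391). *Btg2*, an antiproliferative regulator of messenger RNA decay, fell from 1105 and 2806 TPM to 164 and 59.7 TPM (−4.14 ± 0.58, adjusted *P* = 0.00305). *Ccn1*, a matricellular relative of *Ccn2* also known as CYR61, fell from 2805 and 4956 TPM to 399 and 147 TPM (−3.94 ± 0.54, adjusted *P* = 0.00296) while *Ccn2* rose. In 15 of the 16 lower genes D0 replicate 2 lay above D0 replicate 1, and in 16 of 16 W1 replicate 2 lay below W1 replicate 1. Feedback genes of the same response fell as well, among them the phosphatase *Dusp1* (−2.13 ± 0.34, adjusted *P* = 0.00587) and the RNA-binding *Zfp36* (−2.58 ± 0.35, adjusted *P* = 0.0028). *Egr3*, *Nr4a2*, *Ier3* and *Dusp2* were among the 9 not called. The count was 12 without D0 replicate 2 and 9 without W1 replicate 2.

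AP-1 is the dimeric factor that FOS, JUN, ATF and MAF proteins form. Of the 12 subunit genes tested, 9 were called lower and 0 higher, against 4.10% and 5.79% over all genes (median log2 change −1.66). *Junb* fell from 5321 and 9271 TPM to 1218 and 656 TPM (−2.97 ± 0.39, adjusted *P* = 0.00241). *Fosl1* fell from 613 and 993 TPM to 86.0 and 32.9 TPM (−3.85 ± 0.52, adjusted *P* = 0.00269). *Atf3* fell from 3508 and 6572 TPM to 673 and 152 TPM (−3.90 ± 0.64, adjusted *P* = 0.00653). *Jun* fell from 2251 and 3467 TPM to 1043 and 625 TPM (−1.79 ± 0.36, adjusted *P* = 0.0161). Each of these D0 libraries lay above both W1 libraries. *Jund*, *Fosb*, *Maff* and *Mafk* were the others called. *Fosl2* had 39.0 and 42.8 TPM at D0 and 28.1 and 22.4 TPM at W1 (−0.68 ± 0.33, adjusted *P* = 0.237) and did not pass, nor did *Mafg*. The number was 4 without D0 replicate 2 and 4 without W1 replicate 2, and in both cases *Fos*, *Junb*, *Fosl1* and *Atf3* were the members called. Of 13 KLF factors tested, 6 were lower, or 2 without W1 replicate 2. Among them *Klf9*, a glucocorticoid-inducible factor, went from 72.5 and 128 TPM to 27.3 and 15.9 TPM (−2.16 ± 0.35, adjusted *P* = 0.00653). The time from tissue to lysis is not given per library in the sources used here, and its part in these genes was not tested.

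Genes of cholesterol synthesis formed the other large group of losses, beside a share of 4.10% lower over all genes. The pathway builds cholesterol from acetyl-CoA through mevalonate, and its genes are switched on together by SREBP2 when cells sense little sterol. Of 22 tested, 14 were called lower and 0 higher, with a median log2 change of −1.37, and 13 were lower without D0 replicate 2. The count was 9 without W1 replicate 1. *Hmgcs1*, which makes HMG-CoA, went from 326 and 307 TPM to 149 and 139 TPM (−1.13 ± 0.12, adjusted *P* = 0.00119). Further down the pathway, *Idi1* fell from 108 and 55.6 TPM to 14.1 and 19.4 TPM (−2.16 ± 0.29, adjusted *P* = 0.0028). *Cyp51* fell from 68 and 61.2 TPM to 12.8 and 17.8 TPM (−2.02 ± 0.21, adjusted *P* = 0.000929). *Msmo1* fell from 153 and 129.8 TPM to 25.4 and 34.6 TPM (−2.21 ± 0.22, adjusted *P* = 0.000761). Both D0 libraries lay far above both W1 libraries for all 4 enzymes. The largest fall of the 14 was in *Insig1*, the sterol-sensing retention protein of the pathway, from 44.1 and 41.3 TPM to 2.66 and 3.87 TPM (−3.37 ± 0.28, adjusted *P* = 0.000363). *Stard4*, a sterol carrier, fell from 17.2 and 11.7 TPM to 2.46 and 3.52 TPM (−1.94 ± 0.23, adjusted *P* = 0.00146). The regulator gene *Srebf2* had 103 and 108 TPM at D0 and 63.6 and 69.1 TPM at W1 (−0.66 ± 0.22, adjusted *P* = 0.0944) and did not pass. Neither did *Ebp* (0.45) and *Mvk* (0.00), whose log2 changes were not below 0. The summed level of the list was 1819.8 and 1480.02 TPM at D0 and 615 and 716 TPM at W1. Of 16 genes of fatty acid synthesis, *Scd1*, *Scd2* and *Acsl3* were lower and *Elovl7* higher, and 0 of the 16 were called without either W1 library.

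**Figure D3:**
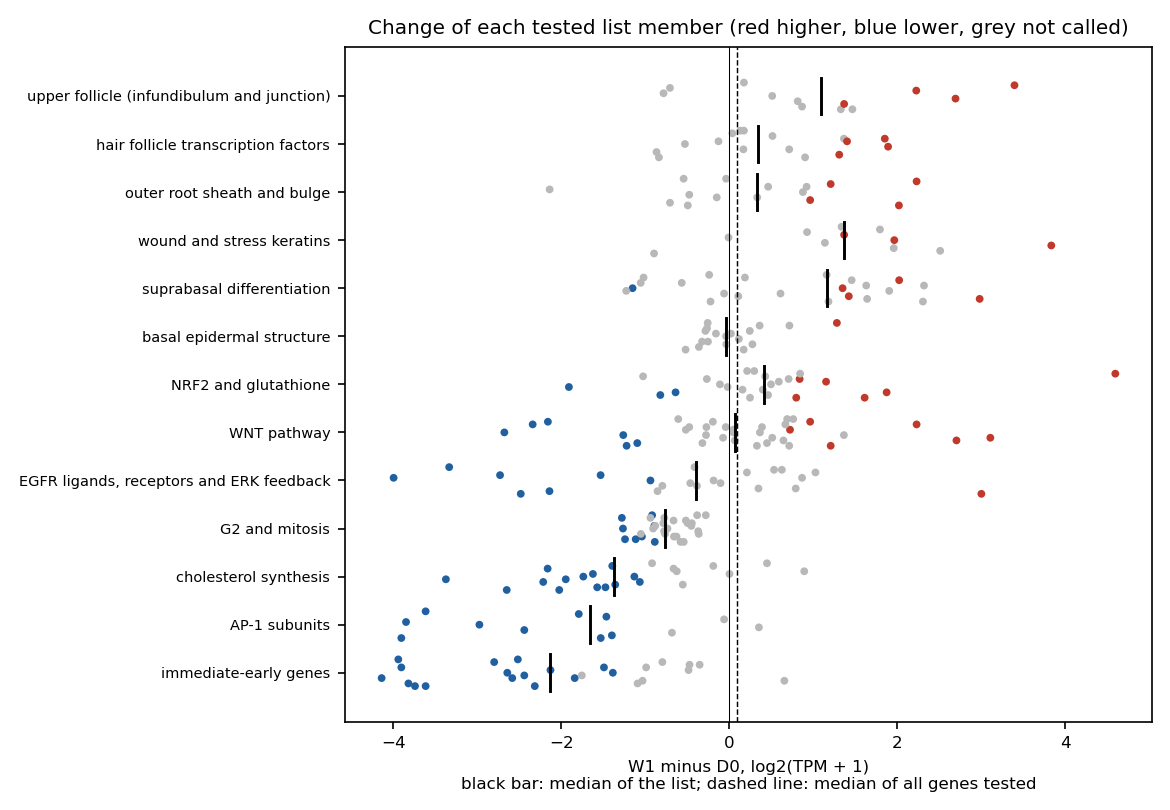
Change from D0 to W1 on the x axis (log2(TPM + 1)) for each tested gene of 13 lists, 1 point a gene, red if higher, blue if lower and grey if not called. Black bars are list medians and the dashed line the median of all genes tested (0.09). The medians of the immediate-early, AP-1 and cholesterol lists lie at −2.13, −1.66 and −1.37, and that of basal structure at −0.04.

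Promoter sequences of RefSeq (GRCm38.p6, 250 bases before to 50 after each start) were searched on both strands for short motifs. They were present for 397 of the 537 lower and 553 of the 759 higher genes, and for 8 of the 14 cholesterol and 13 of the 16 immediate-early genes that were lower. The cAMP response element TGACGTCA was in the window of 5.79% of the lower genes, 2.17% of the higher genes, 3.68% of the genes tested and 2.03% of all genes with a sequence. It was in 3 of the 13 immediate-early genes. The sterol regulatory element TCACNCCAC was in 1 of the 8 cholesterol genes, *Hmgcs1*, and in 1.51% of the lower, 1.81% of the higher and 1.44% of all genes. The AP-1 site TGANTCA was in 9.32% of the lower, 7.59% of the higher, 6.38% of the tested and 8.97% of all genes. This site was in 0 of the 13 immediate-early genes and in 2 of the 8 cholesterol genes, *Msmo1* and *Dhcr7*. The SOX motif ACAATG was in 6.80% of the lower, 7.41% of the higher, 8.69% of the tested and 14.3% of all genes. Neither the 13 immediate-early genes nor the 8 cholesterol genes had it. The CArG box, the element of serum response factor, was in more of the higher (3.25%) than of the lower genes (2.02%), in 1.56% of the tested and 1.81% of all genes, and in 1 of the 13 immediate-early genes. The TEAD motif GGAATG was in 11.6% of the lower, 16.1% of the higher, 14.2% of the tested and 16.6% of all genes. No difference between these shares was tested. No motif contains another, and these are matches of letters, not binding sites. To show what such a match looks like in the groups that fell, 4 of them are given with up to 20 bases on either side, 5′ to 3′ on the strand of the gene, with the motif in capitals. They lie at chr13:119690194-119690242 for *Hmgcs1*, chr17:26508588-26508635 for *Dusp1*, chr1:134079294-134079341 for *Btg2* and chr7:45526269-45526300 for *Ppp1r15a*, the first on the plus strand and the others on the minus strand.
Hmgcs1: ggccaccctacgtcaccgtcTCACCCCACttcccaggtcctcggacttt
Dusp1: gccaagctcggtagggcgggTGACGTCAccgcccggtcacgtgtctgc
Btg2: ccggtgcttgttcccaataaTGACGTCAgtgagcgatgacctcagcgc
Ppp1r15a: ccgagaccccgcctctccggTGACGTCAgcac
The log2 changes of *Hmgcs1*, *Dusp1*, *Btg2* and *Ppp1r15a*, a stress-inducible phosphatase subunit, were −1.13, −2.13, −4.14 and −2.31.

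WNT pathway genes moved in both directions. WNT ligands signal through Frizzled receptors with LRP5 or LRP6, and R-spondins amplify the signal through LGR4 to LGR6. Of 35 WNT pathway genes tested, 6 were called higher and 6 lower, against 5.79% and 4.10% over all genes. All 6 lower genes were among the 10 ligands tested. No difference between roles was tested. *Wnt3a* fell from 21.2 and 29.1 TPM to 2.59 and 3.57 TPM (−2.68 ± 0.23, adjusted *P* = 0.00038). *Wnt5a* fell from 13.1 and 9.36 TPM to 1.40 and 1.38 TPM (−2.34 ± 0.39, adjusted *P* = 0.00753). *Wnt3* fell from 138 and 144 TPM to 29.9 and 31.6 TPM (−2.16 ± 0.46, adjusted *P* = 0.0212). *Wnt4*, *Wnt6* and *Wnt7b* were the other ligands called lower. *Wnt10a*, the most abundant ligand, had 265 and 360.3 TPM at D0 and 303 and 284 TPM at W1 (−0.07 ± 0.18, adjusted *P* = 0.853) and *Wnt16* had 13.9 and 15.1 TPM at D0 and 16.7 and 13.9 TPM at W1, and neither passed. On the receptor side *Fzd7*, *Fzd3*, *Lrp6* and *Lgr4* were higher, and so were 2 inhibitors. *Dkk3* rose from 4.64 and 16.0 TPM to 82.9 and 84.0 TPM (3.11 ± 0.42, adjusted *P* = 0.00269). *Nkd2* rose from 0.403 and 0.206 TPM to 7.57 and 7.39 TPM (2.70 ± 0.42, adjusted *P* = 0.00512). The target *Axin2* had 6.61 and 12.1 TPM at D0 and 11.4 and 11.8 TPM at W1 (adjusted *P* = 0.536). Without D0 replicate 2, *Wnt3* and *Wnt7b* had adjusted *P* values of 0.0805 and 0.0818, and *Lrp6* one of 0.0554. The number of lower WNT genes was 3 without W1 replicate 2, and that of higher ones 3 without W1 replicate 1 and 3 without W1 replicate 2.

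Of 5 ligands of the EGF receptor tested, 3 fell, while the receptor *Fgfr1* rose. Of 22 genes of EGFR ligands, receptors and ERK feedback tested, 7 were called lower and 1 higher, against 4.10% and 5.79% over all genes. *Hbegf* fell from 181 and 317 TPM to 24.2 and 21.6 TPM (−3.33 ± 0.29, adjusted *P* = 0.000409). *Areg* fell from 33.6 and 15.3 TPM to 3.34 and 3.17 TPM (−2.48 ± 0.37, adjusted *P* = 0.00467) and *Epgn* as given above. *Ereg* and *Tgfa* were the 2 ligands not called. *Egfr* itself had 59.9 and 74.9 TPM at D0 and 49.6 and 50.5 TPM at W1 (−0.41 ± 0.19, adjusted *P* = 0.223). The ERK feedback genes *Dusp5* (−2.73 ± 0.37, adjusted *P* = 0.00275), *Errfi1* (−2.14 ± 0.32, adjusted *P* = 0.0044) and *Spred2* (−0.94 ± 0.23, adjusted *P* = 0.0342) were lower, whereas *Dusp6*, *Spry1*, *Etv4* and *Etv5* were not called. *Fgfr1*, a receptor for FGFs, rose from 6.03 and 8.13 TPM to 57.3 and 69.5 TPM (log2 change 3.0, standard error 0.26, adjusted *P* = 0.000381, and 0.0025 without D0 replicate 2). *Fgfr2* fell from 222 and 395 TPM to 111 and 93.4 TPM (−1.53 ± 0.26, adjusted *P* = 0.00767). In TPM, a level per length, *Fgfr1* lay below *Fgfr2* by more than 20 times at D0 and by less than 2 times at W1. The number higher in the list was 3 without D0 replicate 2. Of the 10 IGF genes tested, *Igfbp3* and *Igfbp7* were lower, the latter from 87.6 and 52.4 TPM to 13.4 and 16.8 TPM (−2.10 ± 0.39, adjusted *P* = 0.0118), and *Igf1r* was not called. The IGF count was 1 without W1 replicate 1 and 1 without W1 replicate 2.

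In the BMP and TGF-β lists 31.6% and 23.8% of the tested genes were called, against 9.89% of all genes. In the NOTCH and hedgehog lists the share was 7.69% and 12.5%, near that of all genes in either direction, and rested on 1 gene each. Of 19 BMP genes tested, the ligands *Bmp6* and *Bmp7* and the protease *Bmp1* were higher and *Bmp2*, *Id1* and *Id3* lower. *Bmp2* fell from 49.3 and 56.2 TPM to 12.7 and 10.8 TPM (−2.08 ± 0.20, adjusted *P* = 0.00062). *Bmp7* rose from 29.2 and 33.8 TPM to 67.3 and 71.3 TPM (1.11 ± 0.20, adjusted *P* = 0.0103). *Id1* fell from 239.5 and 220.1 TPM to 52.7 and 40.1 TPM (−2.29 ± 0.31, adjusted *P* = 0.0028). Of 21 TGF-β genes, *Ccn2* and *Inhbb*, an activin subunit that rose from 2.75 and 2.37 TPM to 26.9 and 35.2 TPM (3.16 ± 0.20, adjusted *P* = 0.000116), were higher, and 3 were lower, among them *Skil* and *Tgfbr2*. *Hes1*, a NOTCH target that is also serum-inducible, was the 1 of 13 NOTCH genes called, with 879.7 and 744 TPM at D0 and 163 and 86.0 TPM at W1 (−2.76 ± 0.33, adjusted *P* = 0.00154), and *Notch1* and *Jag2* did not pass. *Gli2*, an effector of hedgehog signalling, was the 1 of 8 hedgehog genes called, and rose from 0.532 and 0.702 TPM to 3.29 and 3.84 TPM (1.5 ± 0.23, adjusted *P* = 0.00501), while *Gli1* and *Shh* were below 1 TPM. *Gli2* was not called without W1 replicate 2, and 2 NOTCH genes were lower without D0 replicate 1. The number of higher BMP genes was 1 without W1 replicate 1 and 0 without W1 replicate 2. *Skil* and *Tgfbr2* were not called without D0 replicate 2 (adjusted *P* = 0.0552 and 0.107), and the number of lower TGF-β genes was 5 without D0 replicate 1, 0 without D0 replicate 2, 1 without W1 replicate 1 and 0 without W1 replicate 2.

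A family of 43 tested actin-binding and LIM-domain genes, put together by symbol after the data had been seen, had 21 higher members and 1 lower one, against 5.79% higher and 4.10% lower over all genes. Since its members were picked with these values in view, the count is a description. The median log2 change was 0.80, and the counts were the same without D0 replicate 2. Beside *Gsn*, *Crip1*, *Crip2* and *Cnn3*, they include *Fhl1*, a LIM-only protein, which rose from 18.1 and 13.3 TPM to 83.2 and 157 TPM (2.80 ± 0.41, adjusted *P* = 0.00431). *Tpm2*, a tropomyosin, rose from 82.3 and 43.8 TPM to 182 and 232 TPM (1.76 ± 0.27, adjusted *P* = 0.00509). *Acta2*, smooth muscle actin, rose from 2.83 and 1.13 TPM to 7.32 and 11.5 TPM (1.84 ± 0.33, adjusted *P* = 0.0101). *Csrp2* fell from 7.62 and 9.39 TPM to 2.10 and 2.15 TPM (−1.60 ± 0.27, adjusted *P* = 0.0076). The number higher was 9 without W1 replicate 2. At cell junctions, *Cldn1*, the main claudin of the epidermal barrier, rose from 154 and 238 TPM to 480.3 and 441 TPM (1.26 ± 0.23, adjusted *P* = 0.0119). *Gja1*, a connexin gene, fell from 426 and 274 TPM to 45.1 and 33.7 TPM (−3.10 ± 0.33, adjusted *P* = 0.00104). Of 35 matrix and integrin genes, *Col8a1*, *Fbln1*, *Itgb8*, *Hspg2*, *Itgb5* and *Lama4* were higher and *Thbs2*, *Npnt*, *Lama1* and *Thbs1* lower. The number higher was 3 without W1 replicate 1 and 3 without W1 replicate 2, and the number lower 1 without W1 replicate 2. *Npnt*, nephronectin of the basement membrane at the bulge, fell from 35.7 and 33.8 TPM to 5.17 and 4.95 TPM (−2.56 ± 0.41, adjusted *P* = 0.00597). *Itgb5* rose from 27.0 and 43.5 TPM to 75.3 and 85 TPM (1.20 ± 0.25, adjusted *P* = 0.0191).

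Stress and redox genes went both ways. Of 24 NRF2 and glutathione genes tested, 6 were called higher and 3 lower, against 5.79% and 4.10% over all genes (median log2 change 0.41). Without D0 replicate 2 the median lay lower, between *Gclc* (0.18) and *Hmox1* (0.22). Beside *Gpx2*, *Mgst1*, a microsomal glutathione transferase, rose from 44.2 and 28.3 TPM to 136 and 129 TPM (1.87 ± 0.24, adjusted *P* = 0.00234). *Aldh3a1*, an aldehyde dehydrogenase, rose from 119 and 87.7 TPM to 336 and 294 TPM (1.61 ± 0.26, adjusted *P* = 0.00582). The NRF2 gene *Nfe2l2* and its targets *Nqo1*, *Hmox1* and *Txnrd1* were not called. The other members that rose were *Gclm*, *Cbr3* and *Taldo1*. *Gsr*, glutathione reductase, fell from 61.1 and 54.6 TPM to 34.8 and 30.0 TPM (−0.82 ± 0.16, adjusted *P* = 0.014). The number higher was 3 without W1 replicate 1 and 3 without W1 replicate 2, and the number lower 1 without W1 replicate 1 and 0 without W1 replicate 2. Of 17 chaperone genes, *Cryab*, a small heat shock protein, rose from 3.32 and 2.86 TPM to 33.9 and 45.8 TPM (3.31 ± 0.30, adjusted *P* = 0.000491). *Hspa4l* rose from 27.9 and 27.1 TPM to 136 and 128 TPM (2.23 ± 0.12, adjusted *P* = 8.07e-05). *Dnajb1* fell from 632 and 1789.7 TPM to 166 and 117 TPM (−2.92 ± 0.43, adjusted *P* = 0.00402), as did *Dnajb4* and *Hspa5*. All 3 metallothionein genes tested, a family chosen after the data had been seen, were lower.

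Of 31 chemokine and cytokine genes tested, 7 were called lower and 2 higher, against 4.10% and 5.79% over all genes. *Il1r2*, the decoy receptor of interleukin-1, fell from 410.3 and 419.8 TPM to 43.9 and 34.8 TPM (−3.37 ± 0.69, adjusted *P* = 0.0171). *Il6* fell from 3.40 and 2.64 TPM to 0.447 and 0.0652 TPM (−1.69 ± 0.30, adjusted *P* = 0.0096). *Tslp* fell from 5.38 and 3.80 TPM to 0.926 and 1.88 TPM (−1.23 ± 0.27, adjusted *P* = 0.0214), beside *Il12rb2*, *Il1a*, *Il20ra* and *Il20rb*. *Csf1*, the growth factor of macrophages and Langerhans cells, rose from 7.02 and 7.42 TPM to 39.2 and 57.3 TPM (2.56 ± 0.25, adjusted *P* = 0.000761). *Ccl20* rose from 21.2 and 16.8 TPM to 39.3 and 113 TPM (1.77 ± 0.41, adjusted *P* = 0.0296), where W1 replicate 2 was far above replicate 1. Of the 7 lower genes, 4 encode receptors. *Cxcl10*, an interferon-inducible chemokine, had 42.2 and 5.30 TPM at D0 and 4.4 and 2.79 TPM at W1 and was called only without D0 replicate 2 (adjusted *P* = 0.0124). The number lower was 2 without W1 replicate 1 and 2 without W1 replicate 2, and the number higher 1 without D0 replicate 1, 1 without D0 replicate 2 and 1 without W1 replicate 2. Of 22 interferon-stimulated genes, *Usp18* and *Irf7* were lower and 0 higher, or 9.09% against 4.10% lower over all genes. With only the 4 libraries of D0 and W1 there was 1 lower, and leaving out single libraries moved the count. Of 18 genes of class I antigen presentation 0 were called, beside 3 at an unadjusted *P* under 0.05.

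Mitotic genes were lower in part, and their count depended on which D0 library was used. Of 30 genes of G2 and mitosis tested, 8 were called lower and 0 higher, against 4.10% and 5.79% over all genes. All 30 had log2 changes below 0 (median −0.77). *Ccnb1*, cyclin B1, fell from 131 and 80.6 TPM to 46.7 and 37.5 TPM (−1.28 ± 0.22, adjusted *P* = 0.0083). *Kif20a*, a mitotic kinesin, fell from 38.2 and 33.9 TPM to 16.1 and 12.9 TPM (−1.26 ± 0.16, adjusted *P* = 0.00229). Both D0 libraries lay above both W1 libraries for these, with D0 replicate 1 the highest. *Mki67* had 25.4 and 10.7 TPM at D0 and 13.3 and 12 TPM at W1 (−0.37 ± 0.33, adjusted *P* = 0.533), and its groups overlapped. The number lower was 5 without D0 replicate 1, 23 without D0 replicate 2 and 1 without W1 replicate 2. Of 31 genes of S phase and replication, 0 were called, beside 3 at an unadjusted *P* under 0.05, and without D0 replicate 1 there were 10 higher and without D0 replicate 2 there were 2 lower. *Ccnd2*, cyclin D2, rose from 446 and 598 TPM to 1359 and 1512 TPM (1.47 ± 0.21, adjusted *P* = 0.00388), and the CDK inhibitor *Cdkn1b* from 9.27 and 9.94 TPM to 17.9 and 18.2 TPM (0.85 ± 0.16, adjusted *P* = 0.0119). *Myc* fell from 697 and 1161 TPM to 413 and 168 TPM (−1.77 ± 0.46, adjusted *P* = 0.0461), with an adjusted *P* of 0.18 without D0 replicate 2. *Myc* and *Cdkn1a* were also not called with quantile normalization, with the replicate number as a block, without W12 or without W1 replicate 2. Of 17 cyclins, CDK inhibitors and MYC genes, the number higher was 2, or 1 without W1 replicate 1 and 1 without W1 replicate 2. Of 15 p53 targets, *Cdkn1a*, *Mdm2*, *Plk2*, *Trp53inp1* and *Bbc3* were lower, and the number was 3 without D0 replicate 1, 0 without D0 replicate 2, 2 without W1 replicate 1 and 0 without W1 replicate 2.

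No gene was called in 3 large lists. Of 82 cytosolic ribosomal protein genes, 79 subunit genes of oxidative phosphorylation and 22 genes of the chromatin partners of SOX9, such as *Arid1b*, *Smarca4* and *Kmt2d*, limma called 0 with Benjamini-Hochberg adjustment. At an unadjusted *P* under 0.05 there were 2, 5 and 6, against 3361 of the 13110 genes tested. Without D0 replicate 1 the number higher in oxidative phosphorylation was 24. Of the chromatin partners, 1 was lower with median-ratio scaling, with quantile normalization and with a replicate block. Leaving out some of the single libraries also moved their counts, in either direction. Messenger RNAs of the mitochondrial genome, a group chosen after the data had been seen, had 4 of 13 higher, against 5.79% over all genes. *mt-Cytb* was at 1281 and 919.7 TPM at D0 and 2627 and 2355 TPM at W1 (1.20 ± 0.21, adjusted *P* = 0.0096). The number was 2 without D0 replicate 2, 0 without W1 replicate 1 and 0 without W1 replicate 2, and nuclear copies share their reads. The sorting antigens *Ly6a* (756 and 565 TPM at D0, 659.6 and 532 TPM at W1) and *Itga6* (196 and 289.7, 203 and 169 TPM) were not called.

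Later timepoints are given beside W1 for the genes that led it, side by side, since W1 and W2 share the D0 libraries. MYC-SOX9 had 1892 and 1469 TPM at W2, below W1. *Gphb5* had 7.92 and 5.23 TPM at W2, and its fall from W1 passed the test between these timepoints (adjusted *P* = 0.0172). *Agr3* had 8.09 and 6.57 TPM and *Cnn3* 18.3 and 16.1 TPM at W2, lower than at W1 without passing. At W2, *Gpx2* had 189.9 and 214 TPM, *Krt79* 2838 and 3670.4 TPM and *Ccn2* 385 and 226 TPM, and none of the 3 passed the test against W1 (adjusted *P* = 0.157, 0.716 and 0.941). Among the losses, *Igfbp3* had 1.64 and 0.812 TPM, *Fos* 3005 and 1449 TPM and *Insig1* 11.8 and 7.73 TPM at W2. Between W1 and W2, 15 of the genes tested passed the threshold, among them *Tpm1*, which was lower at W2 (141 and 184 TPM at W1, 66.0 and 58.3 TPM at W2), and *Adh7*, a retinol-oxidizing dehydrogenase, which rose in both steps, from 40 and 28.9 TPM at D0 to 96.8 and 89.6 TPM at W1 and 243 and 281 TPM at W2.

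**Figure D4:**
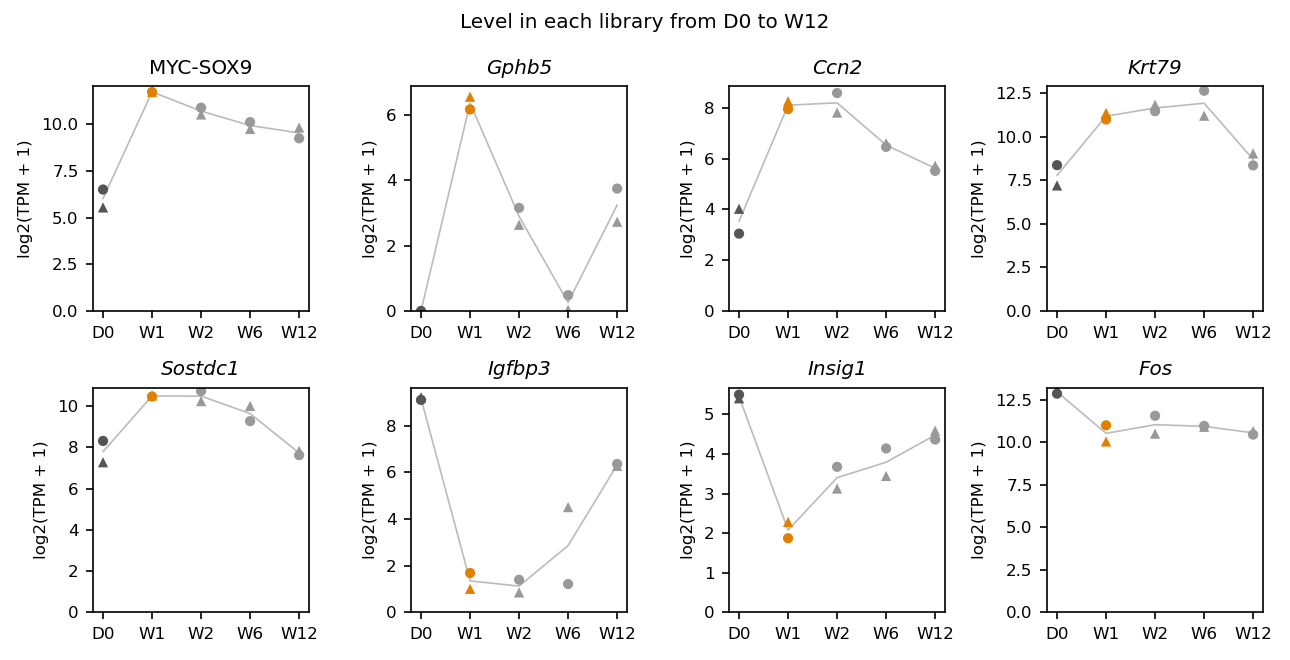
Level of MYC-SOX9 and 7 genes in each library, with timepoint on the x axis and log2(TPM + 1) on the y axis. D0 is dark grey, W1 orange and later timepoints light grey, circles are replicate 1, triangles replicate 2, and the line joins the timepoint means. *Gphb5* peaks at W1, with 71.2 and 93.6 TPM, and *Igfbp3* stays low at W2, with 1.64 and 0.812 TPM. The W12 cells came from grafted skin.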

How the data were processed

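RNA of the sorted cells was made into libraries with a low-input SMARTer kit. The authors trimmed reads with Skewer 0.2.2 and quantified transcripts with Salmon 1.4.0 against GENCODE M24 (GRCm38) with the TRE-Sox9 transcript added. They summed these per gene with Tximport 1.12.3 and deposited TPM values, which are scaled to the same total in each library and carry no read depth, so that depth and counting error are unknown. The study tested counts with DESeq2, which TPM values do not permit.

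Here, log2(TPM + 1) was fitted over the 10 time-course libraries with limma 3.58.1 (R 4.3.3; lmFit, contrasts.fit, eBayes with trend) for genes that averaged 1 TPM or more, and W1 minus D0 was called at an adjusted *P* under 0.05. The study describes the 2 libraries of a group as biological replicates. Replicate numbers gave no pairing, so no block was used. The script was tested on simulated data with known changes.

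Named genes were the 15 largest rises and falls among called genes whose higher group averaged 10 TPM or more and no overlap of libraries, the 10 largest gains and losses in TPM, and members of gene lists, without pseudogenes, unnamed genes or the transgene, which is reported apart. Members and lists were chosen with earlier results of these data known, and 3 gene families were added after the values were seen. Symbols were in part filled from a gene name table (2697), and 54097 genes were matched to GENCODE M21 positions (GRCm38). Alternatives covered the pseudocount, the filter, scaling, the libraries in the fit, the block and each replicate left out. Columns of the authors' own comparisons in another table, fold changes and *P* values of placode and epidermal cells, were not used. A few genes that are counted in the lists are not reported here by name.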

Additional observations from a re-analysis of the deposited data

How the results depend on the processing

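The 10-library fit set the number of calls more than scaling or the pseudocount did. With only the 4 libraries of D0 and W1 in the fit, 411 genes were called (241 higher, 170 lower), and with all genes above 0 TPM in any library 606 (352 higher, 254 lower). Requiring an absolute log2 change of at least 1 left 500 higher genes. Leaving out 1 replicate at a time gave 377 to 1773 calls, 203 to 1134 higher and 174 to 639 lower. The transgene stayed called under every alternative, with log2 changes of 5.23 to 6.19, and no gene named by the rules reversed a call. Of 184 called genes that are named or belong to a list, 103 were no longer called with only 4 libraries, 95 without W1 replicate 2, 65 without W1 replicate 1, 50 without D0 replicate 2 and 5 with median-ratio scaling. With only 4 libraries there were 8 lower genes of cholesterol synthesis, 5 immediate-early genes, 1 AP-1 subunit and 0 genes of G2 and mitosis. The replicate number did not pair the libraries (correlation of same-numbered deviations −0.113). A replicate block gave 1057 calls, and the block with the D0 numbers crossed, chosen after seeing the data, 1225. No fit removed the difference in age or in DOX treatment, and the sex mismatch of D0 replicate 2 bears on each comparison with D0.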

Other observations

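Several gene groups outside the lists described above also had called members at W1. Among 25 semaphorin, ephrin and EPH receptor genes tested, which guide axons and set boundaries between cells, 5 were called higher and 3 lower, and the share called over all genes was 9.89%. Without W1 replicate 1 or W1 replicate 2 there were 2 higher and 0 lower, and without D0 replicate 2 there was 1 lower. Of 22 MMP, ADAM and TIMP genes, the proteases of the matrix and their inhibitors, 1 was higher and 4 lower. Of 15 S100 genes, small calcium-binding proteins of the epidermis, 3 were higher and 0 lower, with 5 higher without D0 replicate 1. Of 28 serpins, 5 were lower and 1 higher, and without W1 replicate 1 or W1 replicate 2 there were 1 lower and 0 higher. Without D0 replicate 1 there were 3 lower, and without D0 replicate 2 there were 3 lower and 0 higher.

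Among 10 SOX factors, *Sox13* was called higher, from 0.335 and 0.661 TPM to 2.94 and 2.94 TPM (1.40 ± 0.26, adjusted *P* = 0.011), beside the transgene and the uncertain *Sox9* entry. *Sox13* was not called without W1 replicate 1 (adjusted *P* = 0.0653) or without W1 replicate 2 (adjusted *P* = 0.0833), and *Sox9* not without W1 replicate 2. Of 17 clock genes, *Bhlhe40* and *Nfil3* were lower and 0 higher, or 11.8% against 4.10% lower over all genes. With only the 4 libraries of D0 and W1 there were 0 lower, and leaving out single libraries moved the count. Of 23 genes of glycolysis and hypoxia, *Adm*, *Slc16a3* and *Car9* were lower and 0 higher, or 13.0% against 4.10% lower over all genes. With only the 4 libraries of D0 and W1 there was 1 lower, and leaving out some single libraries moved the count. Among genes of T cells and named after the values were seen, *Thy1* went from 35.7 and 47.5 TPM to 6.17 and 7.67 TPM (−2.42 ± 0.40, adjusted *P* = 0.00685), with both D0 libraries above both W1 libraries.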
